A study of Mus musculus with 3 samples.

Results

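A set of 10 genes of T cell costimulation and activation were followed across 3 culture media. They were chosen by symbol, 10 of the 23282 gene rows of the data: the CD28 family receptors Cd28 and Icos, the TNF receptor superfamily members Tnfrsf4 (OX40), Tnfrsf9 (4-1BB), Tnfrsf18 (GITR), Tnfrsf1b (TNFR2) and Cd27, the ligand Cd40lg, and the activation markers Cd69 and Cd44. All 10 had a row and all 10 passed the filter on low values. CD4 T cells were sorted from spleen and lymph nodes of mice labelled C57BL/6 (C57BL/6 J in the study's methods). No allele, transgene, sex or age is named in the labels. The study's methods state that its mice were female and of a given age range unless otherwise specified. Every culture received anti-CD3/CD28 antibody at 2 µg/ml for 72 h. The labels name the medium as the difference between the groups. Whether the media shared culture or library batches is not given in the sources used here. Complete medium (CM) is RPMI with 10% serum. Dialyzed medium (DM) is an RPMI base free of amino acids with dialyzed serum, and DM+Met is DM given 30 µM methionine. The study reports that DM itself still contained methionine, so DM+Met against DM does not compare methionine with none. Each medium is represented by 2 libraries. The study describes 2 independent biological samples per medium, but the labels do not state whether the 2 files of a medium are separate cultures, so p-values measure the spread between these libraries, which may be technical. The culture stimulates the CD28 receptor with antibody in all 3 media, so none of the groups shows these genes without CD28 engagement, and no unstimulated culture was analysed here.

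A T cell that meets antigen receives its first signal through the T cell receptor and a second through costimulatory receptors. CD28 is present on resting cells and binds CD80 and CD86, whereas ICOS is induced after activation, binds ICOS ligand and signals strongly through phosphoinositide 3-kinase. OX40, 4-1BB, GITR, TNFR2 and CD27 signal through TRAF adaptors to NF-κB and sustain survival and expansion. CD40 ligand on helper T cells engages CD40 on B cells and dendritic cells. CD69 appears early after activation and holds the sphingosine-1-phosphate receptor S1PR1 inside the cell, which retains lymphocytes in tissue, and CD44 is the hyaluronan receptor that marks antigen-experienced cells.

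Between CM and DM, 1 of the 10 genes rose and 1 fell. Cd69 was 3.84-fold higher in DM, Cd28 was at 0.692 of its CM level, and the other 8 did not pass the test. With methionine added, 0 of the 10 passed the test against DM by limma or by limma-voom. Before adjustment, 1 lay below 0.05 by limma, as did 1238 of the 12770 genes tested. Against CM, DM+Met again showed a higher Cd69, by 3.77-fold, and a lower Tnfrsf4, at 0.651 of its CM level. Over all 12770 genes tested, 16.9% passed the same threshold between DM and CM (limma, adjusted p below 0.05), 0.0548% between DM+Met and DM, and 15.3% between DM+Met and CM. The members' 2, 0 and 2 of 10 lie near those backgrounds, so the count alone sets them apart from other genes in no comparison. The comparisons with CM share the same 2 CM libraries, and their agreement on Cd69 is not 2 independent observations.

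The libraries held 8504929 to 12377440 reads, of which the 10 genes together took 0.302% to 0.472%. Levels are given as log2(CPM + 1), where CPM is the number of reads relative to a common library size after TMM scaling, and fold changes on that scale are too small for genes with few reads. Reads per gene allow a floor of 3 reads, a log2 value of 0.323 to 0.469 depending on the library, for a gene not seen, and every library held at least 22 reads of every member. Floors cover counting error only, and several reads may stem from one molecule, since no molecular identifiers are named in the labels. DM library 1 and DM library 2 correlated at 0.919 across genes, less closely than DM library 2 did with the DM+Met libraries (0.940 and 0.947). The 45S ribosomal precursor row took between 15.5% and 38.3% of reads and had its lowest shares in DM+Met. With library totals in place of TMM, the median change of all genes moved from 0.01 to 0.34 between DM+Met and DM and from 0.06 to 0.41 between DM+Met and CM on the log2 scale.

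**Figure D1:**
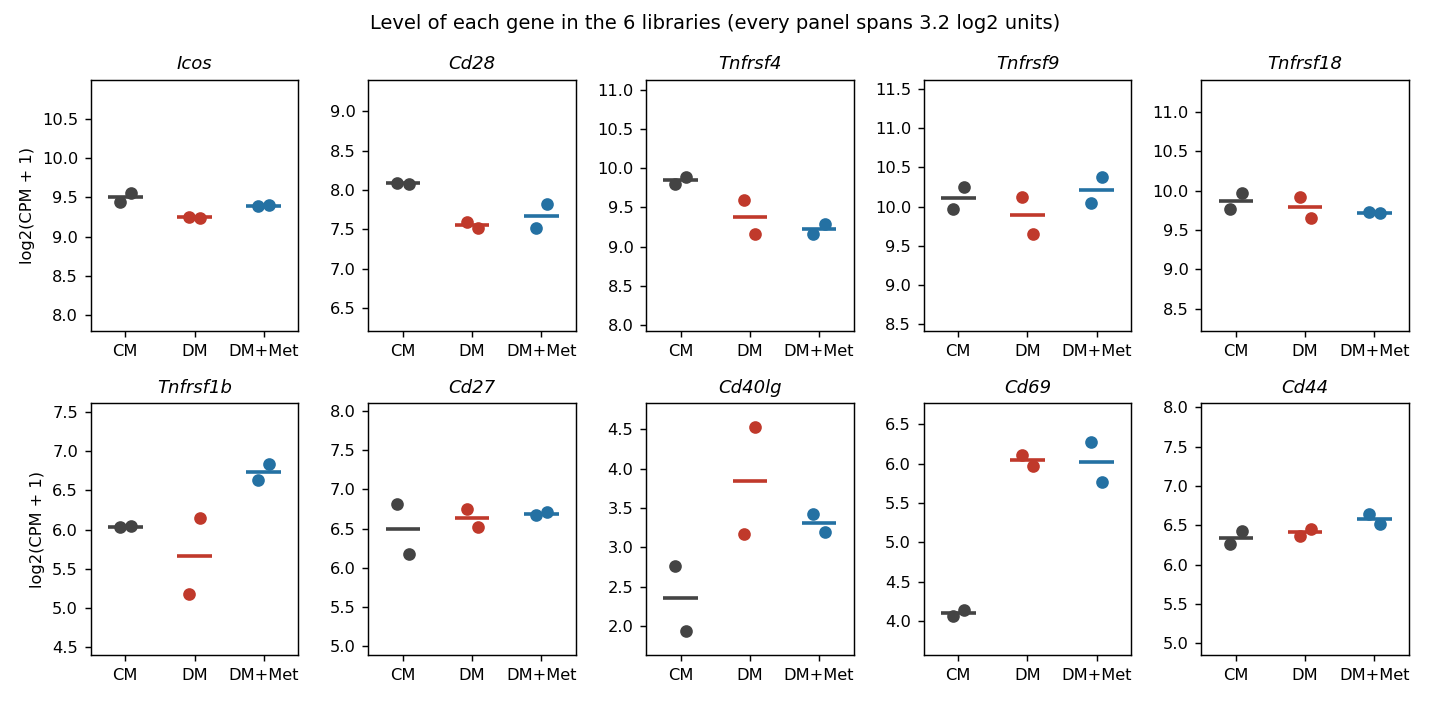
Level of each gene, as log2(CPM + 1), in the 2 libraries of CM (grey), DM (red) and DM+Met (blue), with a bar at the mean of each pair and the same 3.2 log2 units on every vertical axis. Cd69 lay at 4.06 and 4.14 in CM and between 5.76 and 6.27 in the other 4 libraries, while Tnfrsf1b and Cd40lg had their DM libraries far apart.

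Cd28 and Icos lie on chromosome 1 on the plus strand, with Ctla4 between them (GRCm38, GENCODE vM21). Cd28 spans chr1:60716800-60773359 and Icos chr1:60977927-61000320. Ctla4, which encodes the inhibitory receptor that competes with CD28 for CD80 and CD86, begins 113640 bases after the end of Cd28 and ends 62094 bases before Icos. The library kit reads the 3′ end of transcripts, so values stand for a whole gene and do not separate isoforms.

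Cd28 had 2384 and 2104 reads in CM, against 1877 and 2068 in DM and 2174 and 2671 after methionine. On the log2 scale these were 8.09 and 8.08 in CM, 7.59 and 7.52 in DM, with 7.52 and 7.82 in DM+Met. The CM pair stood above all 4 other libraries, and the DM and DM+Met libraries overlapped. The mean was 8.08 ± 0.0078 (SD, n = 2) in CM and 7.55 ± 0.048 in DM, a log2 fold change of −0.53 (SE 0.16, 95% interval −0.89 to −0.17, limma adjusted p = 0.049). This call sits at the threshold and was kept in 2 of 16 alternatives, and it was lost when any 1 of the 6 libraries was left out, with changes of −0.56 to −0.50 throughout. DM+Met against CM gave −0.42 (95% interval −0.78 to −0.06, limma adjusted p = 0.11) and −0.03 with library totals, or −0.48 and −0.43 relative to the median of all genes.

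Icos had 6116 and 5853 reads in CM, against 5952 and 6833 in DM and 8016 in each DM+Met library. Its log2 levels were 9.45 and 9.55 in CM, 9.25 and 9.24 in DM, with 9.39 and 9.40 in DM+Met. The order of the means was CM, DM+Met, DM, with no overlap between any pair of media, but the differences were small. DM against CM gave −0.26 (SE 0.13, 95% interval −0.54 to 0.03, limma adjusted p = 0.203). From DM to DM+Met the difference was 0.15 (95% interval −0.14 to 0.44, limma adjusted p = 0.772). Between DM+Met and CM it was −0.10, and 0.29 with library totals, or −0.17 and −0.12 relative to the median of all genes. Icos is among the immune genes that the study itself displayed from these libraries.

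Ctla4, the neighbour of both genes, fell by 1.44 on the log2 scale in DM (SE 0.18, limma adjusted p = 0.00105) and by 1.60 in DM+Met (limma adjusted p = 0.000429). It had 3458 and 2943 reads in CM, against 1199 and 1851 in DM and 1502 and 1507 after methionine, and it was called against CM in all 16 alternatives in both media. A library held 1.45 and 1.40 Ctla4 reads per Cd28 read in CM, 0.639 and 0.895 in DM, with 0.691 and 0.564 in DM+Met. These ratios do not depend on how libraries are scaled. The number of Icos reads per Cd28 read was 2.57 and 2.78 in CM, 3.17 and 3.30 in DM, with 3.69 and 3.0 in DM+Met, above the CM pair in all 4 libraries. All ratios were chosen after the values were seen and were not tested.

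**Figure D2:**
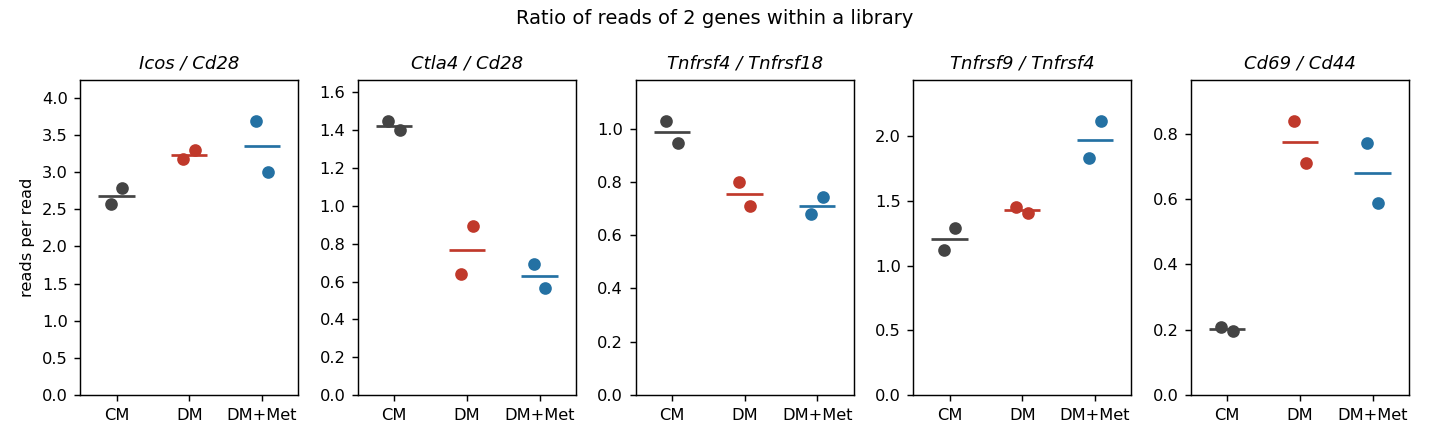
Reads of one gene per read of another within each library, a measure free of library scaling, in CM (grey), DM (red) and DM+Met (blue), with a bar at the mean of each pair. Ctla4 per Cd28 was 1.40 and 1.45 in CM and at most 0.895 elsewhere, and Cd69 per Cd44 was 0.196 and 0.207 in CM and at least 0.588 elsewhere.

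Of the TNF receptor superfamily members, 4 lie on chromosome 4. Tnfrsf4 (chr4:156013843-156016612, plus strand) and Tnfrsf18 (chr4:156026164-156028895, plus strand) are neighbours 9551 bases apart, Tnfrsf9 is at chr4:150914562-150946102 on the plus strand and Tnfrsf1b at chr4:145213463-145246870 on the minus strand. Cd27 is at chr6:125232622-125237010 on the minus strand, and its exons overlap those of Mir8113. The exons of Tnfrsf18 overlap those of the antisense gene Gm16008, and the treatment of strand in the counting is not given in the sources used here, so their reads cannot be told apart.

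RefSeq promoter windows were found for 6 of the 10 genes, and the stretches free of annotated exons are shown for Tnfrsf4 and Tnfrsf18, since of these close neighbours only Tnfrsf4 was called in a comparison, a difference between them that was not tested. The Tnfrsf4 stretch is chr4:156013611-156013694 and the Tnfrsf18 stretch chr4:156026072-156026163 (GRCm38.p6, plus strand, 5′ to 3′). Capitals mark a match to the NFAT core GGAAA on either strand.
Tnfrsf4: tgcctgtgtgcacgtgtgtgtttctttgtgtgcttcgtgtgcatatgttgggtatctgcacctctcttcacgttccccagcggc
Tnfrsf18: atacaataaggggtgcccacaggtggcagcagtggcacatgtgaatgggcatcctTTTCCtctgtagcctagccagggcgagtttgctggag
The whole window, from 250 bases before to 50 after the RefSeq start, was searched on both strands for 3 patterns. Neither gene had a match to the NF-κB pattern GGGNNNNNCC, which 50.8% of 32851 mouse promoters held, or to the AP-1 pattern TGANTCA, which 7.8% held. Both had the NFAT core, as did 61.3% of promoters; the Tnfrsf4 match at −220 to −216 lay in an exon of the upstream gene Sdf4 and is outside the stretch shown. A match is a description of letters and not of a bound site.

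Tnfrsf4 had 7841 and 7385 reads in CM, against 7558 and 6486 in DM and 6856 and 7422 after methionine. The log2 levels were 9.80 and 9.89 in CM, 9.59 and 9.16 in DM, with 9.17 and 9.29 in DM+Met. Both CM libraries exceeded the other 4. DM+Met against CM gave −0.62 (SE 0.16, 95% interval −0.98 to −0.26, limma adjusted p = 0.0308). The call was lost in 7 of 16 alternatives, among them each of the 4 libraries of this comparison left out (−0.68 to −0.56) and library totals, where the change was −0.22 (limma adjusted p = 0.375). Relative to the median of all genes the change was −0.68 with TMM and −0.63 with library totals. DM against CM gave −0.47 (95% interval −0.83 to −0.11, limma adjusted p = 0.0759), which became −0.68 if DM library 1 was left out and −0.25 if DM library 2 was. It passed in 3 of 16 alternatives: 10 reads in every library (limma adjusted p = 0.0487), limma-voom (adjusted p = 0.0461) and without DM library 1 (limma adjusted p = 0.0486).

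For Tnfrsf18 no comparison passed the test. It had 7616 and 7801 reads in CM, against 9457 and 9146 in DM and 10093 and 9975 after methionine, and log2 levels of 9.76 and 9.97, 9.92 and 9.66, and 9.73 and 9.71. DM overlapped CM, and DM against CM gave −0.08 (95% interval −0.40 to 0.25, limma adjusted p = 0.757). DM+Met against CM gave −0.15 (95% interval −0.47 to 0.18, limma adjusted p = 0.548) and 0.25 with library totals, or −0.21 and −0.16 relative to the median of all genes. A library held 1.03 and 0.947 Tnfrsf4 reads per Tnfrsf18 read in CM, 0.799 and 0.709 in DM, with 0.679 and 0.744 in DM+Met. The CM ratios stood above the other 4, a difference that was not tested. Sdf4, which ends 232 bases before Tnfrsf4 begins, fell by 0.75 in DM and by 0.82 in DM+Met (limma adjusted p = 0.00672 and 0.00413); the latter call was lost with library totals.

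Tnfrsf9 was read 8774 to 15768 times per library. Its log2 levels were 9.97 and 10.25 in CM, 10.13 and 9.66 in DM, with 10.04 and 10.37 in DM+Met, overlapping in every comparison. The DM change against CM was −0.22 (95% interval −0.64 to 0.21), DM+Met against DM 0.31 (−0.11 to 0.74) and DM+Met against CM 0.10 (−0.33 to 0.52), with limma adjusted p-values of 0.474, 0.647 and 0.774. The first was 0.02 without DM library 2, and the last was −0.05 without CM library 1 and −0.07 without DM+Met library 2.

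Tnfrsf1b had the largest change on adding methionine among the 10 genes, but it was not called. It had 564 and 506 reads in CM, against 345 and 793 in DM and 1169 and 1347 after methionine. The log2 levels were 6.03 and 6.04 in CM, 5.18 and 6.15 in DM, with 6.63 and 6.83 in DM+Met. Both DM+Met libraries exceeded all 4 others, and the DM libraries lay on either side of CM. DM+Met against DM gave 1.07 (SE 0.30, 95% interval 0.41 to 1.73), 2.10-fold (1.33 to 3.31), with a limma p of 0.00485 before and 0.319 after adjustment over all genes. It was the only one of the 10 below 0.05 unadjusted in that comparison, as were 1238 of the 12770 genes tested. Leaving out DM library 1 gave 0.58, and leaving out DM library 2 gave 1.55. Against CM, DM+Met gave 0.70 (95% interval 0.04 to 1.36, limma adjusted p = 0.144), which passed in 4 of 16 alternatives, with 1.09 under library totals (limma adjusted p = 0.0223), or 0.68 relative to the median of all genes against 0.64 with TMM.

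Cd27 was level at 6.75 and 6.52 in DM and at 6.67 and 6.71 in DM+Met, between the CM libraries at 6.81 and 6.17, which held 977 and 556 reads. The change was 0.15 between DM and CM (95% interval −0.37 to 0.67), DM+Met against DM 0.05 (−0.47 to 0.57) and DM+Met against CM 0.19 (−0.32 to 0.71), with limma adjusted p-values of 0.704, 0.975 and 0.621. Without CM library 2 the changes against CM turned negative, at −0.17 in DM and −0.12 in DM+Met.

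Cd40lg, on chrX:57212143-57224042 (plus strand), was read 22 to 250 times per library. The CM libraries had 51 and 22 reads, the DM libraries 78 and 250, and the DM+Met libraries 116 and 97. Log2 levels were 2.77 and 1.93 in CM, 3.16 and 4.53 in DM, with 3.42 and 3.19 in DM+Met. All 4 dialyzed libraries lay above both CM libraries, and the DM pair spread by more than the DM+Met pair. In DM the change against CM was 1.50 (SE 0.59, 95% interval 0.18 to 2.81), 2.82-fold (1.14 to 7.00), with a limma adjusted p of 0.109. It ranged from 0.81 without DM library 2 to 2.18 without DM library 1. With methionine the change against CM was 0.96 (95% interval −0.35 to 2.27, limma adjusted p = 0.313).

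Cd69, on chr6:129267325-129275436 (minus strand), was the one gene called between CM and both dialyzed media. It had 138 and 130 reads in CM, against 670 and 699 in DM and 911 and 635 after methionine. Log2 levels were 4.06 and 4.14 in CM, 6.12 and 5.97 in DM, with 6.27 and 5.76 in DM+Met. All 4 dialyzed libraries stood far above the CM pair, and DM and DM+Met overlapped. DM against CM gave 1.94 (SE 0.26, 95% interval 1.35 to 2.53, fold 2.56 to 5.76, limma adjusted p = 0.00165) and passed in all 16 alternatives. DM+Met against CM gave 1.92 (fold 2.51 to 5.67, limma adjusted p = 0.00137) and passed in 15 of 16, the exception being without DM+Met library 1 (1.66, limma adjusted p = 0.0662). DM+Met against DM gave −0.02 (95% interval −0.61 to 0.56, fold 0.654 to 1.48, limma adjusted p = 0.99). With library totals this value was 0.34, beside a median of 0.34 over all genes.

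Cd44 (chr2:102811141-102901665, minus strand) stayed within 6.26 to 6.64 on the log2 scale in all 6 libraries. It was 6.26 and 6.42 in CM, 6.36 and 6.46 in DM, with 6.64 and 6.52 in DM+Met, and the DM+Met libraries exceeded the other 4. DM against CM gave 0.07 (95% interval −0.35 to 0.48) and DM+Met against CM 0.23 (−0.18 to 0.65, limma adjusted p = 0.445), which passed with library totals (0.63, limma adjusted p = 0.0462). Relative to the median of all genes, this change was 0.17 with TMM and 0.22 with library totals. Cd69 reads per Cd44 read were 0.207 and 0.196 in CM, 0.840 and 0.710 in DM, with 0.773 and 0.588 in DM+Met.

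**Figure D3:**
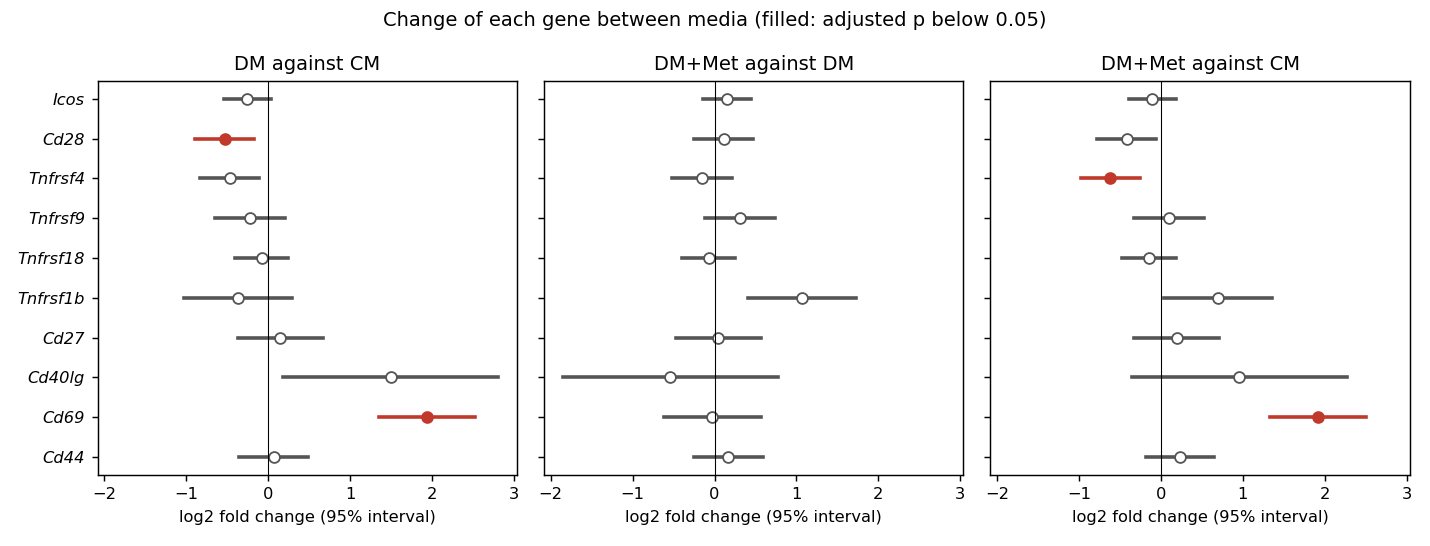
Log2 fold change of each gene between media, with 95% intervals from the limma fit over all 3 media, and filled red points where the adjusted p was below 0.05. Cd69 (1.94 and 1.92) was called against CM in both dialyzed media, Cd28 (−0.53) in DM, Tnfrsf4 (−0.62) in DM+Met, and none between DM+Met and DM.

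Read across the 10 genes, the 3 media gave few differences of size. The median change of the 10 was −0.15 in DM against CM, 0.08 in DM+Met against DM and 0.15 in DM+Met against CM, beside medians of 0.07, 0.01 and 0.06 over all genes tested. Both libraries of one medium lay above both of the other for 5 of the 10 in DM against CM, 3 in DM+Met against DM and 8 in DM+Met against CM. The same held for 54.1%, 41.0% and 60.9% of all genes. Of the 10 intervals, 7, 8 and 7 lay within 1 log2 unit of no change. The genes whose pattern over the 6 libraries was most like a called member, among 7490 searched, were Parp14 (Pearson's r = 0.999) and Bin1 (0.997) for Cd69, Atp5g1 (0.997) and H1f0 (0.996) for Cd28, and Unc119 (0.992) and Srpk1 (0.992) for Tnfrsf4. With 6 libraries in 3 pairs these values describe a shared step between media.

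The study sorted CD4 T cells magnetically, a step that removes most cells of other types, and their markers were checked in the libraries. In bulk RNA a change in the number of cells of a type and a change in RNA per cell cannot be told apart. The T cell markers, of which 8 of 10 had a row, summed to 1650 to 1710 CPM in CM, 1680 to 2100 in DM and 1880 in both DM+Met libraries, and Cd4 had 1584 to 3312 reads per library. The 6 regulatory T cell markers summed to 1060 to 1190 CPM in CM, 1660 to 1910 in DM and 2170 to 2300 in DM+Met. Of these, Ikzf2, Nrp1, Lrrc32 and Ikzf4 rose in DM by 3.31, 4.14, 2.41 and 1.33 on the log2 scale (limma adjusted p = 1.44e-05 to 0.00245), and Foxp3, the lineage factor, rose in DM+Met against CM (2.68, limma adjusted p = 0.00168) and had a change of 0.63 in DM (limma adjusted p = 0.285). Il2ra, the remaining marker, had a mean of 1110 CPM over the libraries and was not called. Its change from CM was 0.103 in DM (limma adjusted p = 0.645) and 0.405 after methionine (limma adjusted p = 0.0741). Calls against CM numbered 4 of 6 in DM and 5 of 6 after methionine, beside 16.9% and 15.3% of all genes. Ctla4, which was not placed among these markers, fell by 1.44 and 1.60. GITR, OX40, TNFR2 and ICOS are known to be high on regulatory T cells. The part of this list in the values of Tnfrsf18, Tnfrsf4, Tnfrsf1b and Icos was not tested.

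Markers of CD8 T and NK cells summed to 120 to 134 CPM in CM, 47.3 to 48.1 in DM and 63.4 to 65.3 in DM+Met. Cd8a had 301 and 320 reads in CM and 82 to 184 in the other libraries, and Cd8a and Nkg7 fell in both dialyzed media whereas Klrb1c, named after its value was seen, rose in DM+Met. B cell markers summed to 73.7 to 88.4, 79.5 to 94.2 and 60.9 to 73.1 CPM, with Pax5 at 0 in all libraries and Cr2 the only one called, in DM. Myeloid markers summed to 16.0 to 29.7 CPM in CM, 134 to 185 in DM and 168 to 169 in DM+Met. All 9 tested myeloid markers had a positive change in DM. Of these, 3 were called, beside 16.9% of all genes: Mmp12, Ccl17 and Lyz2. Lyz2 was named after its value was seen (2.13, limma adjusted p = 0.0355). After methionine, 7 of the 9 changes from CM were positive and 2 negative. Only Mmp12 and Ccl17 were called there, beside 15.3% of all genes. Mmp12 and Ccl17 gave most of the reads in the dialyzed media, with 828 to 1238 and 263 to 344 reads there. Cd68 had 54 and 92 reads in CM and 112 to 222 in the other libraries, Itgax 23 and 42 against 55 to 192, Csf1r 1 to 144 over all libraries, Itgam at most 41 and Adgre1 at most 28. CD69 and CD44 are also expressed by other leukocytes, and the part of these cells in Cd69, Cd40lg and Cd44 was not tested.

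The ligands of these receptors are made by antigen-presenting cells and in part by T cells themselves. Of the 10 genes in a list of these ligands and Cd40, 8 passed the filter, with 2 called higher and 1 lower in DM against CM and 2 higher in DM+Met against CM. The medians of the list were 0.75 and 1.09. Over all genes the medians were 0.07 and 0.06, and 16.9% and 15.3% were called. Tnf, whose product binds TNFR2, had 88 and 66 reads in CM, against 595 and 538 in DM and 767 and 704 after methionine. It rose by 2.42 in DM and 2.62 in DM+Met (limma adjusted p = 0.000746 and 0.000352), in all 16 alternatives. Lta, encoding lymphotoxin alpha, also a TNFR2 ligand, rose by 2.10 and 3.14 (limma adjusted p = 0.00138 and 0.000149); the first call was lost without DM library 1 or 2. Cd86, a ligand of CD28 and CTLA-4, fell by 2.05 in DM (limma adjusted p = 0.0109), a call lost in 6 of 16 alternatives. Tnfsf4 and Tnfsf18, the ligands of OX40 and GITR, had reads in 1 and 2 of the 6 libraries and were not tested. Cd40 had 32 to 135 reads per library, and a change of 0.70 in DM (limma adjusted p = 0.41).

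Of 8 other costimulatory receptors tested, 4 rose in DM and the same 4 in DM+Met against CM, and none fell, with medians of 0.42 and 0.92, beside 16.9% and 15.3% of all genes called in those comparisons, which share the CM libraries. Slamf6, a SLAM family receptor, had 10 and 70 reads in CM and 293 to 660 in the dialyzed libraries, and rose by 3.21 and 3.29 (limma adjusted p = 0.00977 and 0.00846). Without CM library 1 or CM library 2 its DM change was 2.10 or 4.32, and both calls were lost in 7 of 16 alternatives. Cd2, the receptor of CD48, rose by 0.84 and 0.96 (limma adjusted p = 0.00403 and 0.00168), and Tnfrsf25 (DR3) by 1.10 and 1.13. Cd226, named after its value was seen, was the remaining one, with 4 and 3 reads in CM, and its call in DM was kept in 6 of 15 alternatives.

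Among 22 TRAF and NF-κB genes, 4 rose and 1 fell in DM, and 5 rose and 1 fell in DM+Met against CM, beside 16.9% and 15.3% of all genes called. The other 17 and 16 did not pass the test, and the medians were 0.27 and 0.40, beside 0.07 and 0.06 over all genes. Nfkb2, the non-canonical NF-κB subunit that OX40 and 4-1BB engage, rose by 1.19 and 1.41 (limma adjusted p = 0.00409 and 0.00145). Rela, a canonical subunit, rose by 1.04 and 0.99 (limma adjusted p = 0.00793 and 0.00975). Nfkb1 rose in DM by 1.26 (limma adjusted p = 0.0257), a value of 0.71 without CM library 2 and 1.81 without CM library 1, and Ikbkb rose in DM by 0.95 (limma adjusted p = 0.0147). The inhibitor Nfkbib fell by 0.69 in DM (limma adjusted p = 0.0209), a call kept in 8 of 16 alternatives, and had a change of 0.01 in DM+Met. Nfkbia, another inhibitor, had a change of −0.25 in DM (limma adjusted p = 0.239). In DM+Met against CM Nfkbia rose by 0.46 (limma adjusted p = 0.0498), a call kept in 7 of 16 alternatives. In DM+Met against CM Tank, a TRAF-binding protein, rose by 0.84 (limma adjusted p = 0.034).

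Of 16 genes of proximal CD28 and ICOS signaling, 5 rose and 1 fell in each dialyzed medium against CM, and 10 did not pass in each. The medians were 0.18 and 0.14. Over all genes the medians were 0.07 and 0.06, and 16.9% and 15.3% were called. Pik3r1, the regulatory subunit that CD28 and ICOS bind, rose by 1.30 and 1.29 (limma adjusted p = 0.00403 and 0.00393), and Pik3ca by 1.02 and 0.82. Pik3cd, the leading catalytic subunit of T cells, fell by 0.63 and 1.07 (limma adjusted p = 0.0169 and 0.00122). Pik3cg rose in DM by 1.78 (limma adjusted p = 0.00691), with 391 and 469 reads there against 97 and 88 in CM, and had 164 and 189 in DM+Met.

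Of 7 mRNA decay factors, Rc3h2 and Zfp36l1 were called in both dialyzed media against CM, beside 16.9% and 15.3% of all genes. Rc3h2 (Roquin-2), which represses Icos and Tnfrsf4 transcripts, was higher by 0.90 in DM and 1.20 in DM+Met (limma adjusted p = 0.0409 and 0.0129). Zfp36l1 was higher by 0.86 and 0.98 (limma adjusted p = 0.00467 and 0.00208). The other 5 were not called, among them Rc3h1, with changes of −0.0025 and 0.15 (limma adjusted p = 0.997 and 0.715). The Rc3h2 call in DM was kept in 4 of 16 alternatives. Among 11 tested partners of CD69 and CD44, S1pr1 and Klf2 rose in both dialyzed media, beside the same shares of all genes. S1pr1, the receptor that CD69 holds inside the cell, had 181 and 264 reads in CM, against 2019 and 2587 in DM and 2036 and 2329 after methionine, and rose by 2.99 and 2.74 (limma adjusted p = 0.000115 and 0.000149) in all 16 alternatives. Klf2, the factor known to induce S1pr1, rose by 2.53 and 1.91 (limma adjusted p = 0.000388 and 0.00113). Ezr, encoding ezrin, which links CD44 to actin, fell by 0.57 in DM+Met against CM (limma adjusted p = 0.0347), a call lost in 10 of 16 alternatives. No gene of any of these lists was called between DM+Met and DM. Without any 1 of the 6 libraries, the calls against CM held in both dialyzed media for Tnf, S1pr1, Ctla4, Ikzf2, Ikzf4, Nrp1, Lrrc32 and Ccl17, in DM for Klf2 and Nkg7, and in DM+Met for Lta. Every other call of a list gene given here was lost without at least 1 library.

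**Figure D4:**
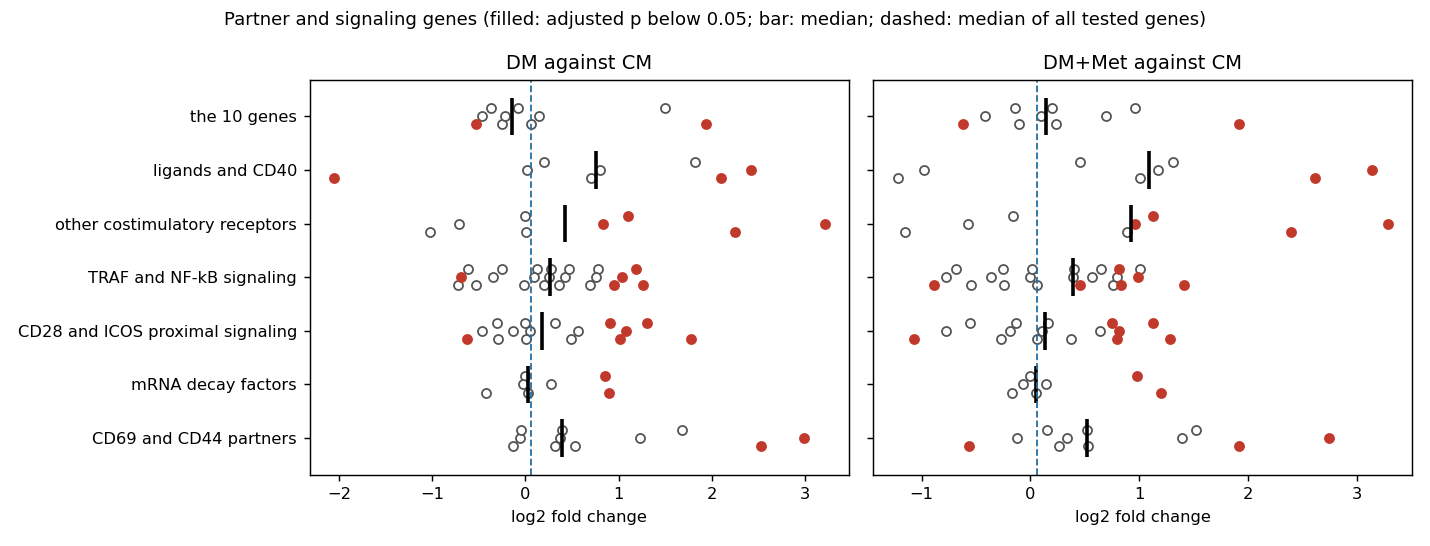
Log2 fold change of each tested gene against CM, by list, in DM and in DM+Met, with filled red points where the adjusted p was below 0.05, a black bar at the median of the list and a dashed line at the median of all tested genes (0.07 and 0.06). The 10 genes lay between −0.62 and 1.94, with Cd69 at the upper end in both media.

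**Figure D5:**
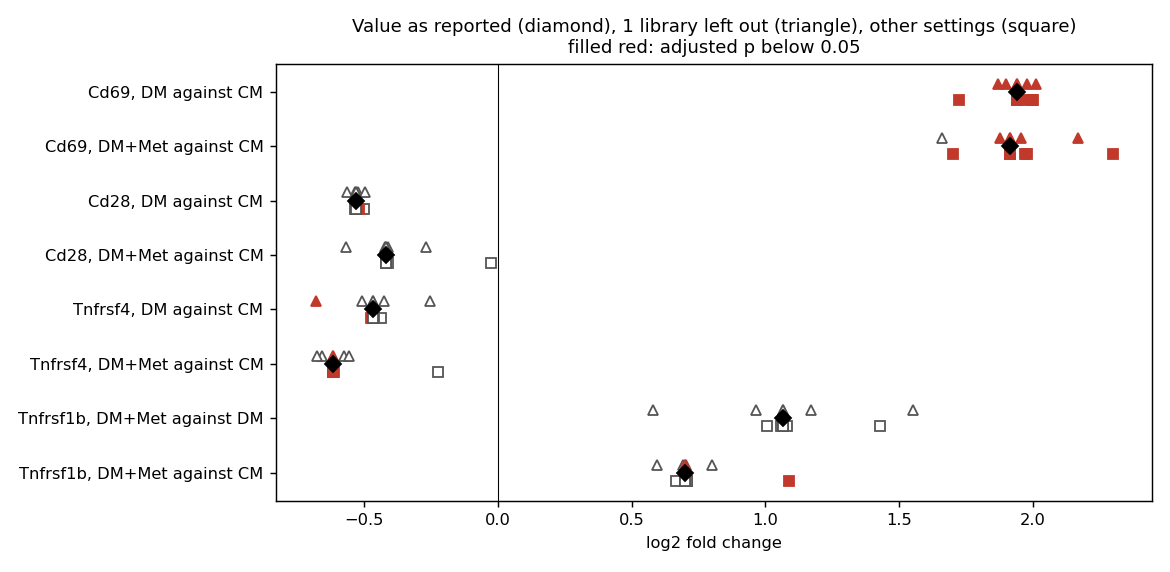
Log2 fold change of 4 genes as reported (diamond), with 1 library left out (triangles) and under other settings (squares), filled red where the adjusted p was below 0.05. Cd69 stayed between 1.66 and 2.30 in both comparisons, Cd28 in DM lost its call in 14 of 16 alternatives, and Tnfrsf4 in DM+Met in 7.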

How the data were processed

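RNA libraries were made with the LEXOGEN Quant-Seq kit from total RNA, 2 files per medium. The authors deposited log2 values of TMM-scaled CPM plus 1, given to 3 decimals; the tools listed in the submitters' notes are Bowtie2 and bedtools with build mm10, and their versions, the annotation and the use of strand are not given in the sources used here. Reads behind each value were recovered from the equal steps of the values, and at least 99.776% of values up to 300 reads lay within 0.1 of a whole number. No column was left unmapped (0).

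A gene entered the test with 0.946 CPM or more in 2 or more libraries, the value of 10 reads at median depth, and 15 or more reads overall. One linear model over the 3 media was fitted to the deposited log2 values with limma 3.58.1 in R 4.3.3 (empirical Bayes with an intensity trend), two-sided, with Benjamini-Hochberg adjustment over the 12770 genes at 0.05. The fit was also run on simulated data for DM against CM. There the spread beyond counting noise was set the same for every gene and was not fitted to these libraries. That run therefore does not give the error rates here. The members and gene lists were chosen with earlier results of these data known. The text names all 10 members and, for each list, up to 6 genes called in a comparison with a mean of at least 10 CPM, ranked by their change between DM and CM. Some genes that meet this rule are counted in their list but not reported here by name. Gene positions are from GENCODE vM21 and promoters from RefSeq, both on GRCm38. The 16 alternatives changed scaling, filter, pseudocount, samples in the fit, variance model and pairing, or left out 1 library. Libraries of one medium differed by more than counting noise, with a chi-square per degree of freedom of 18.2 to 35.9, so none was a file deposited again; separate libraries of one culture could differ as much.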

Additional observations from a re-analysis of the deposited data

How the results depend on the processing

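Of 480 member values, 30 fold changes under each of 16 alternatives, 429 kept their direction and side of the threshold, 22 lost the call, 8 gained it and 21 reversed. The count of members called between DM and CM, 2 as reported, was 1 with library totals, no filter, a pseudocount of 0.1, a fit of only the 2 media, no trend, a robust prior or the replicate block, and 1 to 2 when a library was left out; it was 3 with 10 reads in every library, where Tnfrsf4 was added, and limma-voom called Cd69 and Tnfrsf4. Cd69 was called in all. Between DM+Met and DM it was 0 throughout. Between DM+Met and CM, also 2, it was 1 with no filter or no trend, 3 with library totals (Cd44, Cd69 and Tnfrsf1b) or a fit of only the 2 media, and 0 to 3 when a library was left out. The cause was not tested. The replicate block left Cd28 at an adjusted p of 0.0721; the numbers of the libraries did not pair them (correlations of the deviations of same-numbered libraries −0.025, 0.005 and −0.03), so this block reflects only a number.

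Over all genes, DM against CM gave 2154 calls, and 795 with only the 2 media, 1329 with no trend and 541 to 1061 without 1 library. DM+Met against DM gave 7, and 55 with library totals, 2 with no filter, 27 with 10 reads in every library, 13 with a pseudocount of 5, 21 by limma-voom, 14 with a robust prior, 0 with only the 2 media or no trend and 0 without any 1 library. DM+Met against CM gave 1952, and 1265 with no filter, 944 with no trend and 268 to 1622 without 1 library. These counts depend on 2 libraries a medium; the lone library left in a group was assumed to vary like the other groups.

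With library totals the sign reversed for Icos (0.29) and Tnfrsf18 (0.25) in DM+Met against CM, and for Tnfrsf4 (0.21), Tnfrsf18 (0.30) and Cd69 (0.34) in DM+Met against DM. This scaling moves the median of all genes to 0.41 and 0.34, and relative to it Icos (−0.12) and Tnfrsf18 (−0.16) in DM+Met against CM, and Tnfrsf4 (−0.12), Tnfrsf18 (−0.04) and Cd69 (−0.0025) in DM+Met against DM, kept the sign they had with TMM. Leaving out 1 library in turn gave ranges that cross 0, in DM against CM for Tnfrsf9 (−0.4525 to 0.0185), Tnfrsf18 (−0.205 to 0.051), Tnfrsf1b (−0.86 to 0.12), Cd27 (−0.17 to 0.47) and Cd44 (−0.0145 to 0.1465), in DM+Met against DM for Cd28 (−0.038 to 0.262), Tnfrsf4 (−0.365 to 0.063), Tnfrsf18 (−0.1965 to 0.0595), Cd27 (−0.068 to 0.163), Cd40lg (−1.22 to 0.14) and Cd69 (−0.28 to 0.23), and in DM+Met against CM for Tnfrsf9 (−0.0675 to 0.2625) and Cd27 (−0.12 to 0.51). The cause of the reversals on leaving out a library was not tested.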
